A study of Mus musculus with 3 samples.

Results

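The calcium buffer genes described here, 7 of the 31053 mouse genes in the count matrices, were followed by symbol in 3 single-cell libraries of cochlear organoids: Ocm (oncomodulin), Calb1 (calbindin-D28k), Calb2 (calretinin), Pvalb (parvalbumin), Pcp4 (Purkinje cell protein 4), S100a1 and S100b. They were taken by name and not by any measured value. Cells that hold transcripts of each gene, and cells that hold several of them, are described below.

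Calcium enters a hair cell through its transduction channels at the hair bundle and through voltage-gated channels at its synapses. Mobile EF-hand proteins bind that calcium, shape how far and how long it spreads, and carry it to pumps at the membrane. In the adult organ of Corti oncomodulin is known from outer hair cells, parvalbumin and calretinin from inner hair cells, calbindin from hair cells during maturation, and S100 proteins from hair cells and supporting cells.

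The organoids came from Lgr5+ cochlear progenitor cells of C57BL/6 mice, Lgr5 being a receptor that marks cells of the sensory epithelium able to divide in culture. The differentiated groups were organoids collected on day 25 and on day 5 of differentiation, in medium with bFGF, BDNF, Shh, A83-01 (an inhibitor of the TGF-beta type I receptor), RA (retinoic acid) and LY4115775, the last of these given only during the first 5 days. Their common starting point, the expansion group, was passage 2 organoids on day 8 in DMEM/F-12 with N2 and B27, the growth factors IGF at 50 ng/mL, EGF at 20 ng/mL and bFGF at 10 ng/mL, and the small molecules CHIR99021 at 3 uM (an inhibitor of GSK3), Y-27632 at 10 uM (an inhibitor of ROCK) and LPA at 2.5 uM; the differentiated organoids had passed through the same expansion. All were dissociated in 0.125% trypsin for 25 min, sorted as single living cells and measured with 3' v3 chemistry, which counts UMIs, the tags of single captured transcripts. Each group was 1 library, so time and library cannot be told apart and no test over replicates exists; every interval below is 95% and covers counting error only. How many organoids, animals or cultures went into a library is not given in the sources used here.

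After filtering, 25214 cells of the expansion library, 13234 cells of day 5 and 6130 cells of day 25 were kept, with median UMIs per cell of 4578 in expansion, 5830 on day 5 and 8474 on day 25. Cell barcodes shared between libraries numbered 133 for day 5 and expansion, 54 for day 25 and expansion, and 22 for day 25 and day 5, at most 0.920% of the smaller library. Fewer doublets were called (2.14% on day 25, 4.45% on day 5 and 9.94% in expansion) than a rate of 0.8% per 1000 cells gives (5.29% on day 25, 11.6% on day 5 and 23.3% in expansion), so doublets remain among the cells described. Cells were classed by a few genes. Pou4f3-positive cells have at least 1 UMI of Pou4f3, a transcription factor of hair cells. Epcam-positive Pou4f3-negative cells lack it and have more UMIs of the epithelial adhesion gene Epcam than of Otor, and Otor-high cells have at least 5 UMIs of Otor, which encodes otoraplin of cochlear fibrocytes and mesenchyme, and more of it than of Epcam, and no Pou4f3 UMI. Pou4f3-positive cells numbered 241 in expansion, 728 on day 5 and 1855 on day 25; Epcam-positive cells numbered 15597 in expansion, 6689 on day 5 and 3567 on day 25, and Otor-high cells 4383, 4618 and 526 at the same times. Lists of markers were set beside these classes on day 25. The epithelial list includes Epcam and the mesenchyme list Otor, so the classing itself favoured those sums. The 16 hair cell genes summed to 6860 CPM (a gene's UMIs scaled to all UMIs of the cells summed, the usual depth-scaled count) in Pou4f3-positive cells, 147 CPM in Epcam-positive cells and 306 CPM in Otor-high cells. The 9 epithelial genes summed to 2009 CPM in Pou4f3-positive, 9308 CPM in Epcam-positive and 131 CPM in Otor-high cells. The 10 mesenchyme genes summed to 103 CPM in Pou4f3-positive, 22.4 CPM in Epcam-positive and 9241 CPM in Otor-high cells. Of the Pou4f3-positive cells on day 25, 1521 also held an Epcam UMI. A limit on day 5 is that 55.8% of Pou4f3-positive cells held a single Pou4f3 UMI, against 17.0% on day 25.

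The promoters of 3 members are shown because their transcripts took different courses in Pou4f3-positive cells: Ocm appeared late, Pvalb was lower on day 25 than on day 5, and Pcp4 passed the 2-fold rule from expansion to day 5 but not after. Each is the 250 bases before a RefSeq transcription start, 5' to 3' on the gene's own strand, in build GRCm38.p6. The Ocm start lies outside the GENCODE M21 gene body, upstream of it, and that body ends on this side at chr5:144026670. Of the 7 genes, 5 had an entry, and Pvalb had a second start whose window is not printed.
Ocm, chr5:144050610-144050859, minus strand: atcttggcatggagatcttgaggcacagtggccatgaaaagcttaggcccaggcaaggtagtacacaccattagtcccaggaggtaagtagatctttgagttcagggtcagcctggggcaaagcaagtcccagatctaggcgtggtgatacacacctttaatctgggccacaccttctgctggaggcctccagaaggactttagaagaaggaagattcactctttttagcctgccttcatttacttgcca
Pvalb, chr15:78206401-78206650, minus strand: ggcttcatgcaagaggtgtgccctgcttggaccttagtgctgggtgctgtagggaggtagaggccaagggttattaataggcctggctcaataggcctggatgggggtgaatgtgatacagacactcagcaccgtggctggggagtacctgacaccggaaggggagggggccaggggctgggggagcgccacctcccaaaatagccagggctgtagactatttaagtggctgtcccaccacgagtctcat
Pcp4, chr16:96467356-96467605, plus strand: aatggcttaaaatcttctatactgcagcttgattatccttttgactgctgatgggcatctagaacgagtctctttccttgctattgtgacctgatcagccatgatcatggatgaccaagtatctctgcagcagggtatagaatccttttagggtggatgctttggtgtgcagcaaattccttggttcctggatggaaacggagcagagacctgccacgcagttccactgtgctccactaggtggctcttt
A search of both strands for the E-box CANNTG, the general form bound by basic helix-loop-helix factors, and for TAATTA found neither in these 3 windows, so no letters are in capitals. CANNTG occurs in 66.2% and TAATTA in 4.84% of 32536 mouse promoter windows. No match says only that these letters are not in this window. The second Pvalb window, which is not printed, held 1 E-box match. Of the other windows that are not printed, that of S100b held 1 E-box match and that of S100a1 held 0.

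Read across whole libraries, most members were higher on day 25. Among the 6 members that reached 20 CPM on day 25 or day 5, 5 were over 2-fold higher on day 25 than on day 5, beside 21.1% of 7182 genes, and none was over 2-fold lower, beside 5.79%. Pvalb did not pass 2-fold, and S100b, under 20 CPM in both, had 15.5 CPM on day 25 and 19.8 CPM on day 5. The median log2 ratio over all 7 members was 2.24, against 0.31 over all genes compared; TMM scaling moves every gene down by 0.28 here. Against expansion, 6 of 6 were higher on day 25, beside 33.4% of genes (9.2% lower), and 4 of 4 were higher on day 5, beside 15.3% (7.79% lower). With TMM scaling 3 of 4 were higher on day 5 and with median-of-ratios scaling also 3, since S100a1, at a log2 ratio of 1.07, had 0.74 and 0.75 there. These comparisons share libraries, and the share of Pou4f3-positive cells was 0.956% in expansion, 5.50% on day 5 and 30.3% on day 25. The levels of a whole library therefore mix how many cells hold a gene with how much each holds, and the classes below keep them apart.

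**Figure D1:**
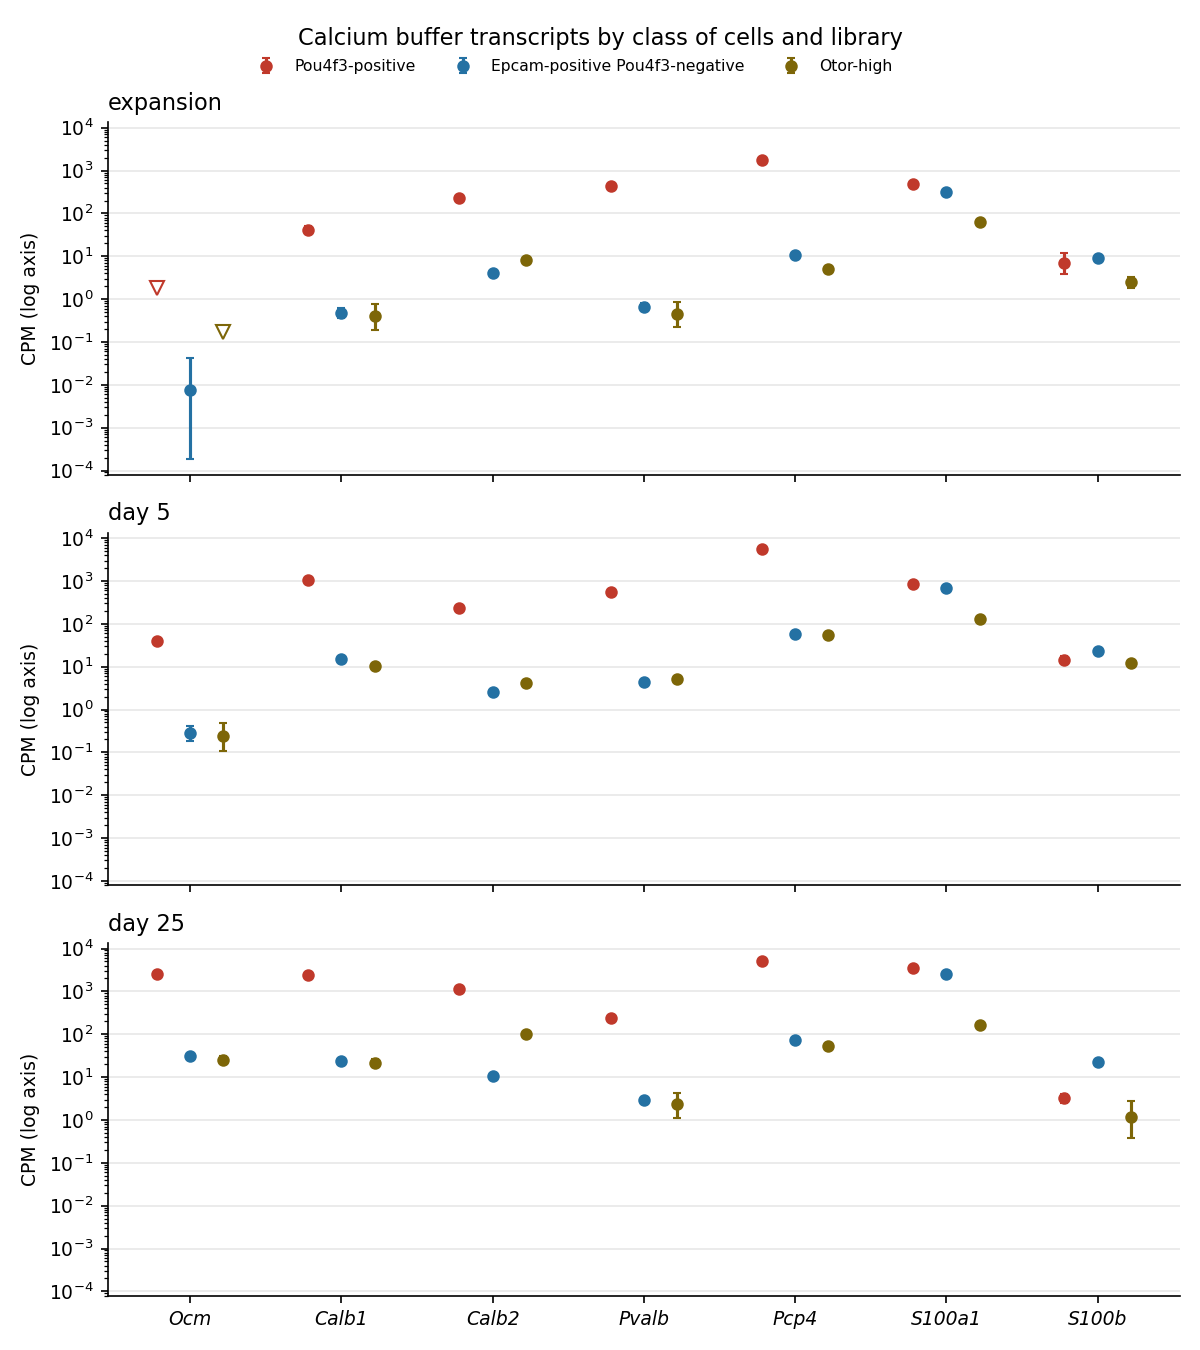
Level of each buffer gene (CPM, log axis) in Pou4f3-positive, Epcam-positive Pou4f3-negative and Otor-high cells of each library, with 95% counting intervals; open triangles are upper limits where no UMI was seen. From day 5 on Ocm, Calb1, Calb2, Pvalb and Pcp4 are far higher in Pou4f3-positive cells than in the other classes, S100a1 is close in both epithelial classes, and S100b is lowest in day 25 Otor-high cells.

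On day 25, 5 of 7 members were over 2-fold higher in Pou4f3-positive than in Epcam-positive Pou4f3-negative cells, beside 18.7% of 7541 genes, and 1 was lower, beside 16.4%. The 5 were Ocm, Calb1, Calb2, Pvalb and Pcp4, and the 1 was S100b. The median log2 ratio of the 7 was 6.07, against 0.11 over all genes compared. On day 5 the count was 5 of 7 higher, beside 11.9% of genes (3.61% lower), and in expansion 4 of 5, beside 9.39% (3.11% lower). No member was used to class the cells. Markers of neurons, which can also hold Calb1, Calb2 and Pvalb, were higher in the same class: 5 of 11 had at least 20 CPM in day 25 Pou4f3-positive cells, led by Nefm and Gata3, and they summed to 1248 CPM there, 168 CPM in Epcam-positive cells and 25.9 CPM in Otor-high cells. Prph was at 0 in Pou4f3-positive cells, and the part of neurons in these levels was not tested.

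Within Pou4f3-positive cells, 4 of 6 members were over 2-fold higher on day 25 than on day 5, beside 21.2% of 7312 genes, and 1 was lower, beside 9.76%. With at least 2 Pou4f3 UMIs per cell Calb1 dropped out and 3 were higher. Marker lists of other cells in this class went both ways. The 8 genes of the greater epithelial ridge summed to 345 CPM on day 25 and 2512 CPM on day 5. The mesenchyme genes summed to 103 CPM on day 25 and 816 CPM on day 5. The 8 chondrocyte genes summed to 247 CPM on day 25 and 1951 CPM on day 5. Higher on day 25 was the neuron list, at 1248 CPM against 757 CPM on day 5. The epithelial list was also higher, at 2009 CPM on day 25 against 1080 CPM on day 5. The hair cell list summed to 6860 CPM on day 25 and 3647 CPM on day 5. The part of these cells in the members' differences was not tested. Between day 5 and expansion 3 of 6 were higher on day 5, beside 13.2% (6.94% lower). Within Epcam-positive cells 2 of 5 were higher on day 25 than on day 5, beside 18.5% (5.39% lower). They were S100a1 and Ocm, the second with day 25 cells at 30.6 CPM and day 5 cells at 0.286 CPM. Where Epcam-positive cells with a UMI of 6 hair cell genes were left out, 1 of 3 was higher. Between day 5 and expansion Pcp4, S100a1 and S100b were higher in Epcam-positive cells, 3 of 3, beside 14.4% (10.6% lower).

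Ocm (ENSMUSG00000029618, chr5:144019804-144026670, minus strand, in GRCm38 as all positions here) encodes oncomodulin, the parvalbumin-type buffer of outer hair cells. It was the latest of the members. In expansion 1 Ocm UMI was seen in 174337838, none of it in the 241 Pou4f3-positive cells, where 3 UMIs, taken as the floor for a count of 0, are 1.52 CPM. On day 5 Pou4f3-positive cells held 40.3 CPM (interval 36.1 to 44.7), at least 26.5-fold higher than expansion taken at that floor of 3 UMIs over the group. On day 25 they held 2594 CPM (2572 to 2616), 64.4-fold higher than on day 5, and 38.3-fold higher among cells with at least 2 Pou4f3 UMIs. At 2000 UMIs per cell, 81.9% of day 25 Pou4f3-positive cells held a UMI, 8.08% on day 5 and none in expansion. On day 25 the middle cell held 2669 CPM, the 25th percentile was 1006 CPM and the 10th percentile was 0, so levels were spread widely among cells of the class.

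Calb1 (ENSMUSG00000028222, chr4:15881264-15908064, plus strand) encodes calbindin-D28k, a fast buffer of hair cells and of many neurons. Its transcripts came earlier than those of Ocm. Pou4f3-positive cells held 41.5 CPM in expansion, 1062 CPM on day 5 and 2420 CPM on day 25. Day 5 stood 25.6-fold above expansion and day 25 stood 2.28-fold above day 5. The later step depended on cells with a single Pou4f3 UMI: among cells with at least 2 such UMIs, Calb1 had 2650 CPM on day 25 and 1842 CPM on day 5, a ratio of 1.44 (1.40 to 1.47) that does not pass 2-fold. In cells with 1 Pou4f3 UMI it had 718 CPM on day 25 and 335 CPM on day 5.

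Calb2 (ENSMUSG00000003657, chr8:110137502-110168210, minus strand) encodes calretinin, a buffer of hair cells and of some neurons. It was already present in the few Pou4f3-positive cells of expansion, at 228 CPM, held 230.3 CPM on day 5 and reached 1125 CPM on day 25. Day 5 and expansion had a ratio of 1.01 (0.911 to 1.12). With at least 2 Pou4f3 UMIs per cell, Calb2 had 417 CPM (398 to 438) on day 5 and 312 CPM (281 to 346) in expansion, with intervals that do not overlap and levels within 2-fold. Day 25 was 4.89-fold higher than day 5, and 2.95-fold higher among cells with at least 2 Pou4f3 UMIs. At 2000 UMIs per cell, 26.01% of Pou4f3-positive cells held it in expansion, 33.8% on day 5 and 77.5% on day 25.

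Pvalb (ENSMUSG00000005716, chr15:78191114-78206400, minus strand) encodes parvalbumin, a buffer known from inner hair cells and fast interneurons. Of the 6 members compared, it was the 1 over 2-fold lower in Pou4f3-positive cells on day 25 than on day 5. It had 439 CPM in expansion, 553 CPM on day 5 and 235 CPM on day 25, so day 5 stood 2.36-fold above day 25. Among cells with at least 2 Pou4f3 UMIs the gap was wider, 255 CPM on day 25 against 969 CPM on day 5, a 3.80-fold higher level on day 5 (3.64 to 3.96). Its direction was the same with TMM scaling (log2 ratio -1.34) and with cells under 2000 UMIs left out (-1.15). The whole day 25 library stood above day 5 in Pvalb (69.7 against 45.3 CPM), a difference that does not pass 2-fold.

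Pcp4 (ENSMUSG00000090223, chr16:96467606-96525793, plus strand) encodes a small protein that binds calmodulin and changes how fast it exchanges calcium, not a buffer in the strict sense. It had 1741 CPM in Pou4f3-positive cells of expansion, 5556 CPM on day 5 and 5041 CPM on day 25. Day 5 was 3.19-fold above expansion, and day 25 and day 5 differed by a ratio of 0.907. With at least 2 Pou4f3 UMIs per cell it had 5438 CPM on day 25 and 9544 CPM on day 5, a ratio of 0.570, still within 2-fold. In day 5 cells with 1 Pou4f3 UMI it had 1836 CPM, against 11123 CPM in those with 3 to 5.

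S100a1 (ENSMUSG00000044080, chr3:90511034-90514392, minus strand) encodes an S100 protein of muscle and of inner ear cells. Hair cell and epithelial levels were close. On day 25 it had 3523 CPM in Pou4f3-positive cells and 2564 CPM in Epcam-positive cells, a ratio of 1.37 (1.36 to 1.39) that does not pass 2-fold, and 169 CPM in Otor-high cells. On day 5 it had 872 CPM in Pou4f3-positive, 699 CPM in Epcam-positive and 127 CPM in Otor-high cells. In expansion it had 497 CPM in Pou4f3-positive, 314 CPM in Epcam-positive and 61.9 CPM in Otor-high cells. The order of the classes was the same in each library. In Pou4f3-positive cells day 25 was 4.04-fold above day 5, and in Epcam-positive cells 3.67-fold above it. At 2000 UMIs per cell, 97.1% of day 25 Pou4f3-positive cells and 90.8% of Epcam-positive cells held it, against 26.9% of Otor-high cells. S100a1 was over 2-fold higher in Epcam-positive than in Otor-high cells on day 25, together with S100b, among 6 members compared; 12.7% of 7320 genes were. On day 5 it was the 1 of 3 higher in Epcam-positive cells, beside 11.2% (10.4% lower), and in expansion the 1 of 1, beside 12.4% (4.34% lower). Muscle genes, another source of S100a1, summed to at most 9.88 CPM in any class.

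S100b (ENSMUSG00000033208, chr10:76253853-76261159, plus strand) encodes a dimer partner of S100a1 known from glia, melanocytes and supporting cells of the ear. Its level was highest in Epcam-positive cells without Pou4f3. On day 25 it had 3.26 CPM in Pou4f3-positive cells and 22.4 CPM in Epcam-positive cells, which stood 6.87-fold higher, and 1.18 CPM (5 UMIs) in Otor-high cells. On day 5 it had 14.6 CPM in Pou4f3-positive, 23.5 CPM in Epcam-positive and 11.9 CPM in Otor-high cells, within 2-fold between the epithelial classes (ratio 0.624). With at least 2 Pou4f3 UMIs per cell S100b had 2.67 CPM in day 5 Pou4f3-positive cells, and passed 2-fold lower (log2 ratio -2.74, against -0.65 with 1 UMI). In expansion it had 7.08 CPM in Pou4f3-positive, 9.19 CPM in Epcam-positive and 2.45 CPM in Otor-high cells, under the 20 CPM a call needs. In day 5 Pou4f3-positive cells it was higher in those with 1 Pou4f3 UMI, at 25.8 CPM, against 2.37 CPM in those with more than 5. Of the glial list in Epcam-positive cells on day 25, 2 of 8 genes had at least 20 CPM: Sox10 and Erbb3, which epithelium also expresses. Mbp had 19.1 CPM there and Foxd3 was at 0. Of the melanocyte genes Kcnj10 had 19.5 CPM, Mitf 4.1 CPM and Pmel 1.3 CPM, and Dct, Tyr and Tyrp1 were at 0. The part of glia and melanocytes in the S100b level was not tested. Of the chondrocyte list, another source of S100 genes, 5 of 8 had at least 20 CPM there and summed to 1787 CPM, with Acan and Hapln1 at 0; the part of such cells was not tested.

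Counted by transcripts, Pou4f3-positive cells held nearly all of the 5 hair cell buffers on day 25. They held 95.9% of Ocm UMIs, 96.6% of Calb1, 95.1% of Calb2, 95.3% of Pvalb and 95.05% of Pcp4. They held 37.1% of S100a1 UMIs, against 61.9% in Epcam-positive cells, and 5.94% of S100b UMIs, against 93.5% in Epcam-positive cells. In expansion the Pou4f3-positive cells, 1.13% of the library's UMIs, held 83.6% of Pvalb and 48.0% of Calb1.

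**Figure D2:**
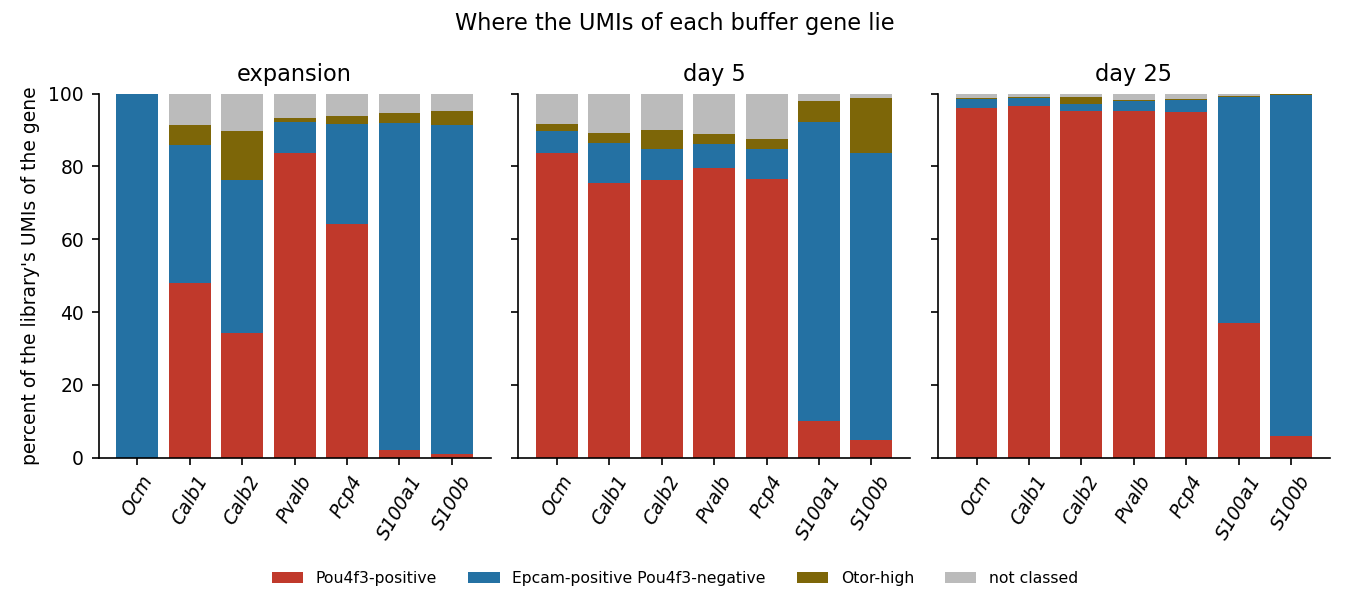
Percent of the UMIs of each buffer gene that lie in each class of cells, per library; bars start at 0. The first 5 genes lie mostly in Pou4f3-positive cells on day 25 (95.05% to 96.6%) and S100a1 and S100b mostly in Epcam-positive cells (61.9% and 93.5%); the expansion Ocm bar is a single UMI.

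Free RNA of a hair cell gene can also be captured with other cells. As its measure served 6 genes of hair cells (Myo7a, Otof, Gfi1, Tmc1, Slc26a5, Chrna9): their sum in Epcam-positive cells was 1.01% of its Pou4f3-positive level on day 25 (0.919% to 1.10%) and 0.608% in Otor-high cells (0.404% to 0.879%). Single genes of the 6 lay between 0.478% and 1.51% in Epcam-positive cells. In Epcam-positive cells Ocm was at 1.18%, Calb1 at 0.992%, Calb2 at 0.945%, Pvalb at 1.27% and Pcp4 at 1.47%. In Otor-high cells Ocm was at 0.989%, Calb1 at 0.894%, Pvalb at 1.00% and Pcp4 at 1.05%. In Epcam-positive cells the intervals of Ocm (1.12% to 1.24%) and Pcp4 (1.42% to 1.52%) lay above that of the summed panel. Among cells, 20.6% of day 25 Epcam-positive cells held an Ocm UMI (median 8905 UMIs) and 20.0% of Otor-high cells (median 7558), at 30.6 CPM in Epcam-positive and 25.6 CPM in Otor-high cells. Such low levels cannot be told apart from free RNA by these values. Epcam-positive cells with several members were also seen: 14 held 4 of the 7, 15 held 5 and 9 held 6, of 3368 at 2000 UMIs per cell. S100a1 in Otor-high cells was at 6.28% of its level in the whole library (5.82% to 6.75%), where the epithelial gene Cdh1 was at 5.63% (39 UMIs) and Epcam, used to class the cells, at 1.42%.

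Calb2 was an exception in Otor-high cells. On day 25 it had 10.6 CPM in Epcam-positive cells and 98.8 CPM (89.6 to 109) in Otor-high cells, and 9.20% of Epcam-positive cells held a UMI, against 30.4% of Otor-high cells. The Otor-high level is 8.78% of its Pou4f3-positive level (7.95% to 9.67%) and 29.5% of its level in the whole library, where Ocm, Calb1, Pvalb and Pcp4 were at 3.35%, 3.05%, 3.37% and 3.54%. It was the 1 of 6 members over 2-fold lower in Epcam-positive than in Otor-high cells, beside 12.8% of genes. Of the 526 Otor-high cells, 160 held Calb2, 73 of them with 1 UMI and 24 with 5 or more. Cells with Calb2 held 5409 CPM of Otor, 27.8 CPM of Ocm and 1114 CPM of Nov, a matricellular gene, and cells without it 3776 CPM of Otor, 24.7 CPM of Ocm and 309 CPM of Nov. Apod had 1814 CPM in cells with Calb2 and 5057 CPM in cells without it, and Col1a2 38.1 CPM in cells with Calb2 and 12.04 CPM in cells without it. Their median UMIs were 7365 and 7697. Nov had the highest correlation with Calb2 there (r = 0.32 across 521 cells of 1 library). The neuron list had none of its 11 genes at 20 CPM in Otor-high cells, and Tubb3 was at 0. In expansion Calb2 had 8.03 CPM in Otor-high cells, 3.52% of its Pou4f3-positive level. The split by Calb2 was chosen after its values were seen.

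**Figure D3:**
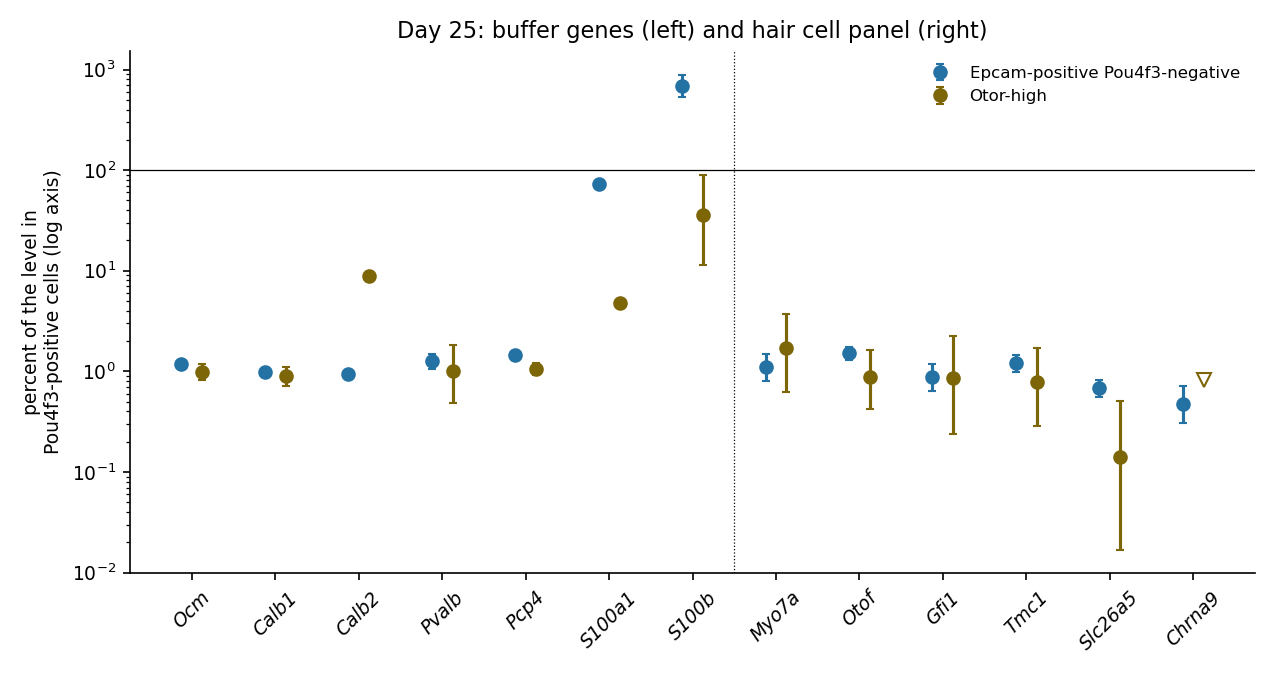
Day 25 level in Epcam-positive Pou4f3-negative and Otor-high cells as a percent of the level in Pou4f3-positive cells (log axis, 95% counting intervals; the open triangle is an upper limit at 0 UMIs) for the buffer genes and for 6 hair cell genes. Ocm, Calb1, Pvalb and Pcp4 lie between 0.894% and 1.47%, near the hair cell genes, while Calb2 in Otor-high cells is at 8.78%, S100a1 in Epcam-positive cells at 72.8% and S100b in Epcam-positive cells above 100%.

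Pou4f3-positive cells held more of the members at later times. At 2000 UMIs per cell, the middle Pou4f3-positive cell held 2 of the 7 genes in expansion, 4 on day 5 and 5 on day 25. Cells with a single Pou4f3 UMI were 44.0% of the class in expansion, 55.8% on day 5 and 17.0% on day 25. Their part in this number was not tested. On day 25 the commonest set was Ocm, Calb1, Calb2, Pcp4 and S100a1, in 44.6% of 1749 cells. The same 5 with Pvalb were in 21.7%, and the set without Calb2 and Pvalb in 9.26%. On day 5 the commonest set was Calb1, Calb2, Pvalb, Pcp4 and S100a1, in 21.8% of 532 cells, followed by that set without Calb2 in 16.4%. In expansion it was Pcp4 with S100a1, in 21.5% of 223 cells. In Epcam-positive cells S100a1 alone was the second commonest set in expansion (38.3% of 14562 cells, after none at 56.9%) and the commonest on day 5 (53.0% of 6231 cells) and day 25 (69.4% of 3368 cells).

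**Figure D4:**
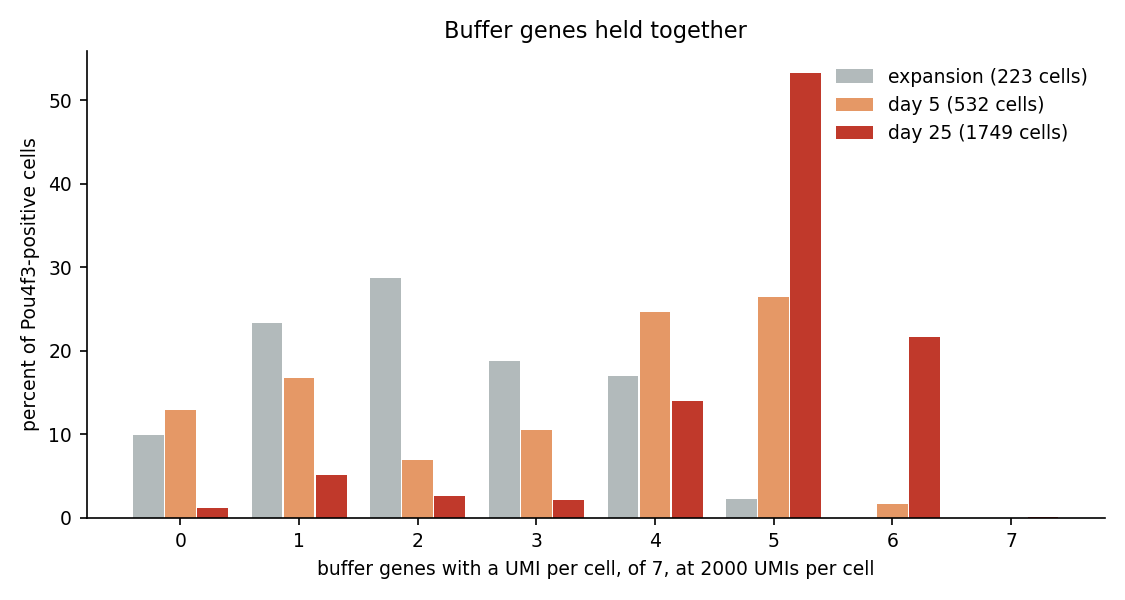
Percent of Pou4f3-positive cells (bars from 0) by the number of the 7 buffer genes with a UMI at 2000 UMIs per cell, for expansion (223 cells), day 5 (532 cells) and day 25 (1749 cells). The commonest number is 2 in expansion (28.7%) and 5 on day 5 (26.5%) and on day 25 (53.3%).

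A pair was counted as held together where the share of cells with both was at least 1.5 times the product of the single shares, and apart at the inverse of 1.5 or less. In day 25 Pou4f3-positive cells none of 17 countable pairs was together, and none could have been. The ratio cannot exceed 1 divided by the larger share, and in each pair 1 gene was in at least 77.5% of cells. The ratio lay near 1 for every pair of the 5 hair cell buffers. The lowest of them was Ocm with Pvalb (0.956, 432 cells with both against 452 from the product), and Calb2 with Pvalb had the highest (1.15). One pair was apart, Pcp4 with S100b, on 6 cells with both against 10.1 from the product, and this call was lost with 1000 UMIs per cell or with at least 2 Pou4f3 UMIs. On day 5, Ocm with Calb2 (1.58) and Calb2 with Pvalb (1.61) were together, and in expansion Calb2 with Pvalb (1.94). Pcp4 and S100a1 were too common at these times for a pair with either to reach 1.5. Pcp4 was in 70.7% of Pou4f3-positive cells on day 5 and 72.6% in expansion, S100a1 in 73.7% and 69.1%. Every day 5 Pou4f3-positive cell with Calb2, 180 of 180, also held Pcp4, as did all 43 with Ocm. Neither of those pairs could be called together. Calb1 was in 63.9% of day 5 Pou4f3-positive cells, a share that leaves little room above 1.5. It lay just under that limit with Ocm (1.492), Calb2 (1.495) and Pvalb (1.490). Calb1 was in 41 of the 43 cells with Ocm, 172 of the 180 with Calb2 and 259 of the 272 with Pvalb. In day 25 Epcam-positive cells Pcp4 was together with Ocm (2.58), Calb1 (2.45) and Calb2 (3.26), each on 34 to 64 cells with both, at the low levels given above, and apart from S100b (0.520). Of the 3 pairs held together 1 was left where cells with a UMI of the 6 hair cell genes were left out, Ocm with Pcp4. Ocm with Calb1 were both in 40 such cells, against 8.79 from the product, under the 10 a call needs. The part of remaining doublets in these pairs was not tested.

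Within day 25 Pou4f3-positive cells some members varied together in level. Across 1749 cells of 1 library, correlations of log2 levels were 0.62 for Ocm with Pcp4, 0.74 for Calb1 with Pcp4, 0.51 for Ocm with Calb1 and -0.12 for Ocm with Pvalb. Pvalb with S100a1 was 0.10, and S100b was between -0.15 and -0.02 with each of the other 6. On day 5, across 532 cells, Calb1 with Pcp4 was highest at 0.89, Pvalb with Pcp4 was 0.64 and Pvalb with Calb1 0.56. Depth of the cell is shared by all genes of a cell and was evened to 2000 UMIs. The day 25 class included 315 cells with 1 Pou4f3 UMI, which held 2108 CPM of Pcp4 and 718 CPM of Calb1. Groups of cells with more Pou4f3 UMIs held 4993 to 7918 CPM of Pcp4 and 2638 to 2712 CPM of Calb1. The part of this mixture in the correlations was not tested. In a separate draw of the thinning over all genes, those most like Pcp4 included Calm2 (r = 0.77), which encodes calmodulin, the protein that PCP4 binds, Calb1 (0.74) and Cib2 (0.69). The nearest gene to Ocm was Pcp4 (0.60) and then Calm2 (0.59), and the nearest to Calb1 and Calb2 was Pcp4. Pvalb had no close gene; the highest were Rprm (0.27) and Gng8 (0.27). S100a1 was nearest to Pcp4 (0.51), Calm2 (0.48) and S100a13 (0.47), and in Epcam-positive cells to Fbxo2 (0.44), a gene of supporting cells, and Skp1a (0.42), over 3368 cells.

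Some Pou4f3-positive cells of day 25 lacked Ocm. Among 1311 cells with at least 3 Pou4f3 UMIs and 2000 UMIs, 72 (5.49%) had no Ocm UMI and 1239 had one. The groups were defined after values were seen, so what follows is a description. Cells without Ocm held 1060 CPM of Pvalb and cells with it 213 CPM, 4.98-fold more in cells without Ocm (4.60 to 5.37). They also held less Slc26a5 (50.4 against 404 CPM), which encodes prestin, the motor protein of outer hair cells, and less Slc17a8, a glutamate transporter of inner hair cell synapses (49.1 against 224 CPM). Calb1 (2178 against 2671 CPM), Calb2 (1594 against 1211 CPM), Pcp4 (4618 against 5310 CPM) and S100a1 (2789 against 3509 CPM) lay within 2-fold, as did Otof, Myo7a, Gfi1 and Chrna9 (179 against 119 CPM). Tmc1 was lower in cells without Ocm, at 103 against 212 CPM. Median UMIs per cell were 8003 in cells without Ocm and 10613 in cells with it.

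**Figure D5:**
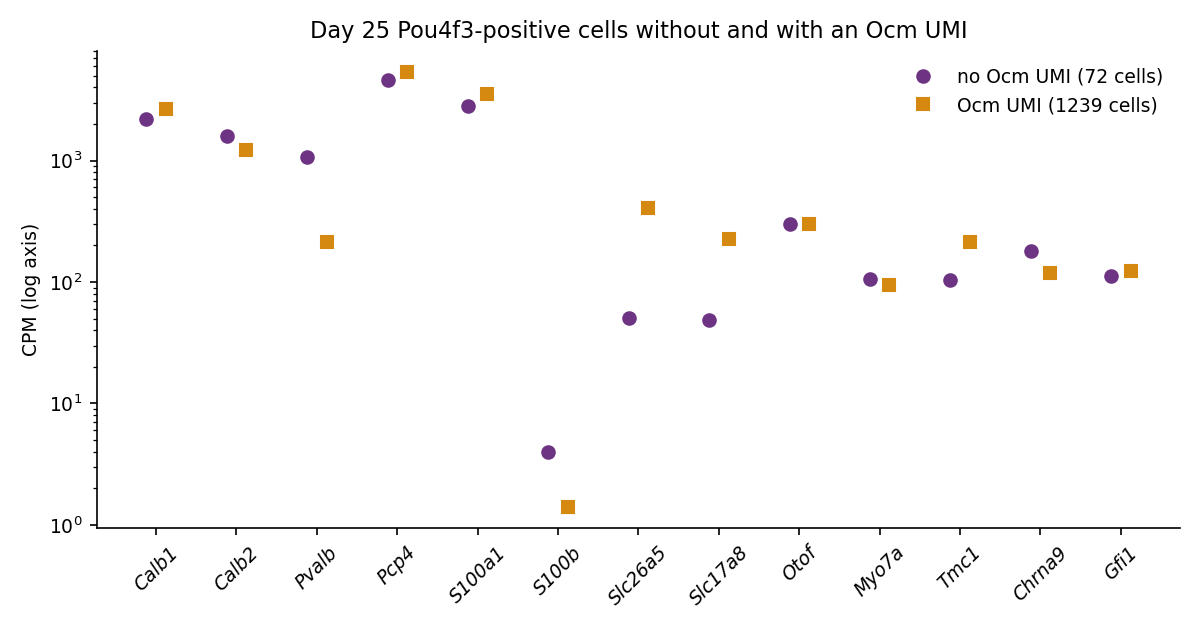
Level (CPM, log axis) of the other buffer genes and of 7 hair cell genes in day 25 Pou4f3-positive cells of at least 3 Pou4f3 and 2000 UMIs, without (72 cells) and with (1239 cells) an Ocm UMI; points are sums over cells, with no replicate error. Pvalb is 4.98-fold higher without Ocm, and Slc26a5 and Slc17a8 are lower there.

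A split by Slc26a5 showed the same order for Pvalb. Day 25 Pou4f3-positive cells with a Slc26a5 UMI (1147 cells, median 11070 UMIs) held 189 CPM of Pvalb and those without (708 cells, median 4454 UMIs) 386 CPM, which is 2.04-fold higher. The other hair cell buffers were within 2-fold. Cells with Slc26a5 held 2724 CPM of Ocm, 2624 CPM of Calb1, 1154 CPM of Calb2 and 4953 CPM of Pcp4, and cells without it 2155, 1736, 1029 and 5338 CPM of the same genes. Depth differed between these groups of cells, and its part in the result was not tested.

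Of 100 other calcium genes listed by role, 56 had at least 20 CPM in day 25 Pou4f3-positive or Epcam-positive cells; 21 were over 2-fold higher and 19 over 2-fold lower in Pou4f3-positive cells, to be read against the 18.7% and 16.4% of all genes given above. In what follows each Pou4f3-positive level stands before the Epcam-positive one. Among calmodulin and its regulators 5 of 11 were higher, with Calm2 at 4376 against 647 CPM, Camk2b at 120 against 1.87 CPM and Pcp4l1, a relative of Pcp4, at 71.3 against 1.17 CPM. Of the 13 channels 8 were higher, with the largest ratios in Chrna9 (209-fold) and Chrna10 (114-fold), subunits of the receptor of the efferent synapse, in Ryr2 (113-fold), a channel of internal stores, and in Kcnn2 (53.0-fold), the potassium channel coupled to that receptor. Cacna1d, the calcium channel of hair cell ribbon synapses, had 355 against 12.5 CPM. Of 7 pumps and exchangers 2 were higher, Atp2b2, the hair bundle calcium pump, at 459 against 10.4 CPM and Slc8a2 at 54.7 against 6.69 CPM, and 3 were lower. Among the 10 EF-hand sensors 4 were higher, with Cib2, a partner of the transduction channel, at 1472 against 63.5 CPM and Cabp2 at 40.0 against 0.637 CPM. Over 2-fold lower were 1 of the 11 genes of calmodulin and its regulators, 3 of the 13 channels and 3 of the 10 EF-hand sensors.

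Other S100 genes mostly had lower levels in Pou4f3-positive than in Epcam-positive cells. Of 5 compared, S100a16, S100a10, S100a11 and S100a6 were lower in Pou4f3-positive cells, S100a11 at 109 against 793 CPM, and S100a13 was higher, at 3536 against 909 CPM. Of the 10 store buffers 5 were lower, Rcn3 and Rcn2 most, and Rcn1 was higher at 603 against 128 CPM.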

How the data were processed

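The deposited matrices hold raw counts of UMIs per gene and cell; the authors made them with Cell Ranger, per the file headers in version 3.1.0 on day 25 and otherwise in 3.0.1; GRCm38 and hg38 are named in the submitters' processing notes, with mouse genes alone in the files, and alignment settings are not given in the sources used here. Positions are GENCODE M21. Cells with at least 500 genes and at most 20% mitochondrial UMIs were kept, and doublets called from 2 simulated doublets per cell were removed. UMIs were summed per class and library and given as CPM with exact Poisson intervals; shares have exact Clopper-Pearson intervals. A gene was called at a 2-fold ratio of CPM + 1 where it had 20 CPM or more in either group. Cells were thinned to 2000 UMIs, and shallower cells left out, for shares and pairs. With 1 library per group no test was made. TMM and median-of-ratios scalings were computed in Python 3.11.15 (numpy 2.4.6, scipy 1.17.1, scikit-learn 1.9.0), and the scripts were tested on simulated data. Named genes were the members, the 5 genes most like each member by Pearson correlation, and up to 4 called calcium genes per role and direction; genes of the hair cell panel, Slc26a5, Slc17a8, Otor and Nov were named besides, the last chosen after its value was seen. The members, lists and splits were chosen with earlier results of these data known. Sequences are from RefSeq; proteins and the Calb1 and Calb2 promoters are not analysed here. One gene that the naming rule picks is not reported here.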

Additional observations from a re-analysis of the deposited data

Results flagged for a closer look

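Cells that no class took were left out of the comparisons, and they also held hair cell buffers: 182 cells on day 25, 1199 on day 5 and 4993 in expansion, with no Pou4f3 UMI. They are named here where a member stood at least 10 times above Otor-high cells of the same library and above the limit that a count of 0 allows there. On day 25 these cells held 1045 CPM of Ocm against 25.6 CPM in Otor-high cells, 763 CPM of Calb1 against 21.6, 125 CPM of Pvalb against 2.35, 2408 CPM of Pcp4 against 53.2 and 1733 CPM of S100a1 against 169. On day 5 they held 13.99 CPM of Ocm against 0.245, 538 CPM of Calb1 against 10.3, 106 CPM of Calb2 against 4.10, 272 CPM of Pvalb against 5.05 and 3179 CPM of Pcp4 against 54.2. In expansion Pvalb had 4.61 CPM in them against 0.454. The 16 hair cell markers summed to 1524 CPM in these cells on day 25, and the mesenchyme gene Apod led the mesenchyme list there. A UMI of the 6 hair cell panel genes was in 27.5% of these cells on day 25 and in 10.4% on day 5. Their median depth was 3104 UMIs on day 25 and 1441 on day 5, lower than in any class of the same library; its part in the lack of Pou4f3 UMIs was not tested.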

How the results depend on the processing

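Of 110 counts of members or pairs under alternative settings, 98 stayed within 1.5 times the reported count and 12 did not. Some of the 98 could not have differed, because the setting left the classes in question unchanged. The Otor floor, for example, does not alter Pou4f3-positive or Epcam-positive cells, and the Pou4f3 floor does not alter the Pou4f3-negative classes. With a filter of 1 CPM, 7 members were higher on day 5 than in expansion in place of 4. Epcam-positive against Otor-high cells on day 5 gave 2 members with TMM scaling in place of 1. Epcam-positive cells of day 25 against day 5 gave 1 member in place of 2, both with Epcam-positive from 5 UMIs and with no hair cell panel UMI allowed. The pair held apart in day 25 Pou4f3-positive cells (1 in the main setting) became 0 with 1000 UMIs, with at least 2 Pou4f3 UMIs and with 2 UMIs needed to hold a gene, and 2 with 4000 UMIs (Calb1 and Calb2, each with S100b) and with doublets kept. The 3 pairs held together in Epcam-positive cells became 1 with 1000 UMIs, 1 without panel UMIs and 0 with 2 UMIs needed. The causes were not tested. Requiring at least 2 Pou4f3 UMIs took Calb1 out of the members higher on day 25 than on day 5. None of the called single values changed sign. Of 757 other single values 526 stayed within counting error and 231 moved by more. The 526 also include values that a setting could not move, such as log2 ratios under the filter of 1 CPM. Median-of-ratios scaling and the Otor-high settings for Calb2 (9.12% from 10 Otor UMIs, 8.96% with doublets kept, 8.78% without panel UMIs) were added after seeing the data. No paired analysis was possible because each group is 1 library. Levels near 1 UMI, such as S100b in Otor-high cells, are limited by depth.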
